A study of Saccharomyces cerevisiae with 4 samples.

Results

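The genes described here are 10 effector genes of the general stress response of *Saccharomyces cerevisiae*, among 5449 genes measured: *DDR2*, *HSP12*, *TMA10*, *SPI1*, *RTC3*, *RTN2*, *MSC1*, *GAD1*, *MOH1* and *DCS2*. They were picked by symbol, with their values on these arrays already known, so every count and median over them is a description and carries no test. Each was read by 1 probe set, a group of short probes against one transcript. The samples were haploid yeast of the strain FM391, either wild type or sod1Δ, which lacks the gene encoding cytosolic copper-zinc superoxide dismutase. Both strains were grown at 30 °C in synthetic medium lacking leucine to an OD600 of about 0.4, and were taken either without peroxide or after 20 min in 0.4 mM H2O2. There was 1 Affymetrix array per strain and condition, 4 arrays in all. The labels give neither the background markers of FM391 nor the number of sod1Δ clones. No difference below has a replicate behind it, and each compares 2 arrays.

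Msn2 and Msn4 are related zinc finger transcription factors that drive the general stress response of yeast. In growing cells with ample glucose, protein kinase A keeps them out of the nucleus. Under oxidative, osmotic, heat or nutrient stress they enter it and bind stress response elements in the promoters of many genes. The effector genes encode membrane and cell wall proteins, enzymes and small proteins of unclear function, and many are also induced as growth slows. Targets of Msn2 and Msn4 commonly respond to several other factors too, so a transcript level alone does not report the activity of either factor. Levels are given as the log2 signals that the authors deposited, where 1 unit is a 2-fold difference. The background floor, set from probe sets of the fission yeast on the same array, was 2.31.

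The strains matched their labels at *SOD1*, which read 14.21 without and 14.31 with H2O2 in wild type, against 2.40 and 2.42 in sod1Δ. As a yardstick for a single difference, pairs of probe sets for the same gene gave an SD per probe set of 0.51 for the wild type response, 0.59 for the sod1Δ response, 0.31 for the untreated strain difference and 0.45 for the treated one. This spread is between probes and holds no variation between cultures. The 13 hybridization control probe sets above the floor, which report bacterial and phage transcripts added to every sample, were brightest in untreated wild type. They differed by a median of -0.47 for the wild type response and -0.20 between the untreated strains, and singly by down to -1.41 and -1.30. The 10 genes differed in the opposite direction in both comparisons. For the sod1Δ response and between the treated strains the controls leaned the same way as the 10 genes. Their median was 0.11 for the sod1Δ response and 0.27, from 0.17 to 0.65, between the treated strains. For untreated sod1Δ against treated wild type the control median was 0.20, where the 10 genes had a median of -1.32. The part of hybridization in the differences of the 10 genes was not tested.

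All 10 genes were lowest in untreated wild type and highest in treated sod1Δ, with the other arrays between them. Of 5365 genes above the floor on at least 1 array, 17.3% had the same lowest and highest array. Among the lists described below, so did 42 of 48 other Msn2/Msn4 targets and 15 of 22 genes linked to Yap1. Of 16 chaperone genes linked to Hsf1, 0 did. The order is thus not particular to the 10 genes. All 10 lay above the floor on every array.

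**Figure D1:**
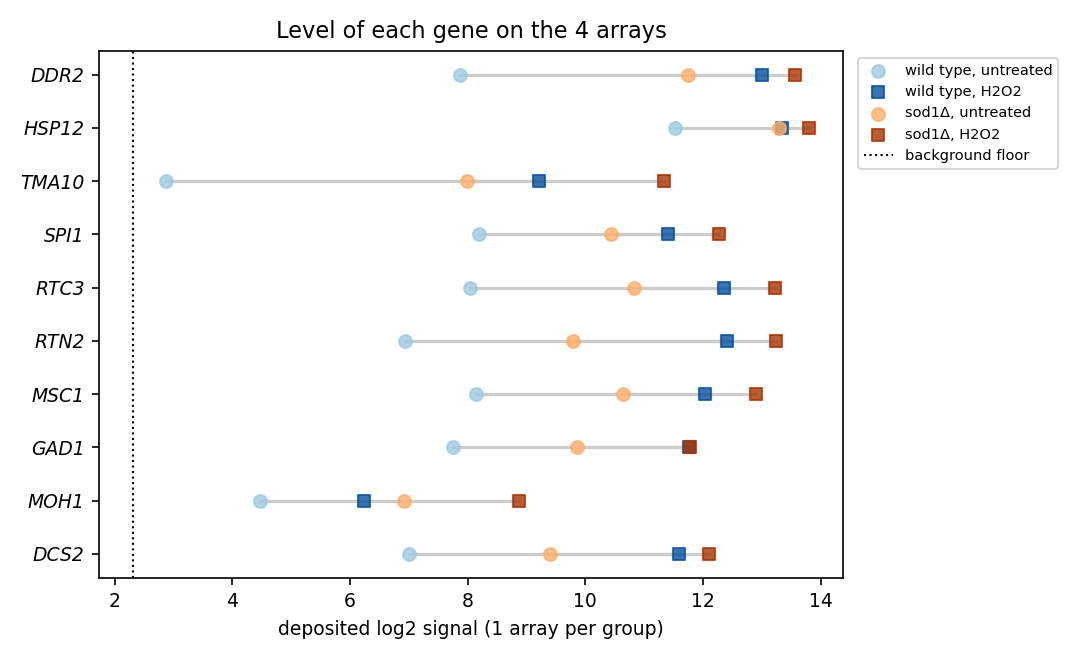
Deposited log2 signal (horizontal axis) of the 10 genes on each of the 4 arrays, 1 point per array; the dotted line is the background floor of 2.31. Untreated sod1Δ (light orange circles) lies between the wild type arrays for 9 genes and beyond treated wild type for *MOH1*.

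*HSP12* encodes a small hydrophilic protein that binds and stabilises membranes under stress. Its signal was 11.52 in untreated and 13.35 in treated wild type, and 13.30 in untreated and 13.81 in treated sod1Δ. Untreated sod1Δ thus stood within 0.05 of wild type after peroxide, and H2O2 changed the deletion strain by 0.51. The 99th percentile of all genes lay between 13.60 and 13.68 on the 4 arrays, and *HSP12* was near or above it on 3 of them. The highest gene on each array read between 14.76 and 14.95.

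*SPI1*, which encodes a cell wall protein held by a lipid anchor, read 8.20 without and 11.40 with H2O2 in wild type, and 10.43 and 12.26 in sod1Δ. Its untreated sod1Δ level was below treated wild type by slightly less than 2-fold, at a difference of -0.97. *RTN2* encodes a reticulon, a protein that curves the tubules of the endoplasmic reticulum. Its signal was 6.94 without and 12.41 with H2O2 in wild type, and 9.79 and 13.25 in sod1Δ. Here untreated sod1Δ was still 2.63 below treated wild type, the widest such gap of the 10 genes.

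*GAD1*, the glutamate decarboxylase gene, has been linked to tolerance of oxidants. Wild type read 7.75 without and 11.76 with H2O2, and sod1Δ read 9.85 and 11.79. The treated strains differed by 0.03, the smallest treated difference among the 10 genes.

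The product of *DCS2* is a stress-induced regulator of the decapping enzyme Dcs1, which clears short capped RNA fragments. *DCS2* read 7.01 without and 11.60 with H2O2 in wild type, and 9.40 and 12.11 in sod1Δ. *RTC3*, which encodes a small protein with similarity to the ribosome maturation factor SBDS, read 8.03 and 12.36 in wild type and 10.83 and 13.22 in sod1Δ. *TMA10* encodes a small protein found with ribosomes. It was near background in untreated wild type at 2.88 and reached 9.21 with H2O2, while sod1Δ read 7.98 untreated and 11.34 treated. The largest increase of any gene in untreated sod1Δ over untreated wild type was that of *TMA10*, 5.10, and it started from a level where the background correction stretches differences. With 32 added to every linear signal it was 2.86, and the wild type response went from 6.33 to 3.99.

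*DDR2* is induced by DNA damage and many other stresses, and its small product has no established function. It read 7.86 without and 13.00 with H2O2 in wild type, and 11.75 and 13.56 in sod1Δ. *MSC1*, first found through its effect on meiotic recombination, read 8.15 and 12.03 in wild type and 10.63 and 12.90 in sod1Δ. *MOH1*, a gene linked to survival in stationary phase, was the only one in which untreated sod1Δ exceeded treated wild type. Its signal was 4.46 without and 6.24 with H2O2 in wild type, and 6.91 and 8.87 in sod1Δ. Its strain difference was 2.45 without and 2.62 with peroxide, and 1.49 and 2.21 with 32 added to the linear signal, since its untreated wild type signal was low.

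The first comparison asked how far each gene was induced by H2O2 in wild type. All 10 were at least 2-fold higher, against 17.1% of the 5358 genes compared, with a median of 4.17 beside -0.03 for all genes. The range ran from 1.78 for *MOH1* to 6.33 for *TMA10*. In linear terms *TMA10* was 80.6-fold higher, *RTN2* 44.3-fold, *DDR2* 35.1-fold, *DCS2* 24.1-fold and *RTC3* 20.1-fold. *TMA10* started near background, and with 32 added to the linear signal its response was 3.99. That was below *RTN2* (5.14), *DDR2* (4.95), *DCS2* (4.29) and *RTC3* (4.17) in the same setting. *HSP12* and *MOH1* had the smallest folds, 3.54 and 3.43. With 32 added to the linear signal the *MOH1* response was 0.995, just under 2-fold. As these genes were picked on such values, nothing is read from their share.

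The second comparison asked the same of sod1Δ. Of the 10 genes, 9 were at least 2-fold higher, against 14.6% of 5341 genes, and the exception was *HSP12* at 0.51. The median was 2.11, from 0.51 to 3.46 for *RTN2*. *TMA10* followed at 3.35 and *DCS2* at 2.71, while *DDR2* was higher by 1.82 only.

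The third comparison set the untreated strains side by side. Every one of the 10 genes was at least 2-fold higher in sod1Δ, where 3.71% of 5344 genes were higher and 3.18% lower. The median difference was 2.47, beside -0.07 for all genes, and the range was from 1.78 for *HSP12* to 5.10 for *TMA10*. *DDR2* came next to *TMA10*, at 3.88 or 14.7-fold. With 32 added to the linear signal the order was reversed, at 3.71 for *DDR2* and 2.86 for *TMA10*. In 9 of the 10 genes, all but *HSP12*, both responses and the untreated strain difference reached 2-fold, as in 1.94% of 5365 genes.

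After H2O2 the strains lay closer together. Only *MOH1* (2.62) and *TMA10* (2.12) were at least 2-fold higher in treated sod1Δ than in treated wild type, 2 of 10 genes, against 3.07% of all genes. The other 8 were within 2-fold, from 0.03 for *GAD1* to 0.88 for *MSC1*. None of the 10 was at least 2-fold lower in treated sod1Δ, against 6.33% of all genes. The treated differences of *GAD1*, *HSP12* (0.46), *DCS2* (0.51) and *DDR2* (0.57) were no larger than the highest of the hybridization controls, 0.65.

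Untreated sod1Δ was then set against induced wild type. In 9 of the 10 genes the untreated deletion strain stayed below peroxide-treated wild type. For 7 of them the gap was at least 2-fold, which 16.8% of 5343 genes also showed. From the narrowest to the widest, these 7 were *TMA10* (-1.23), *DDR2* (-1.25), *MSC1* (-1.39), *RTC3* (-1.53), *GAD1* (-1.91), *DCS2* (-2.20) and *RTN2* (-2.63). Neighbours in that order differed by less than the probe set SD of 0.50 for this comparison. *HSP12*, *SPI1* and *MOH1* were within 2-fold, the last at 0.67 above. None of the 10 was at least 2-fold above treated wild type, against 13.7% of all genes.

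On the log2 scale the untreated sod1Δ level covered a median of 67.2% of the distance between untreated and treated wild type. The share was 52.0% for *RTN2*, 52.0% for *DCS2* and 52.5% for *GAD1*. It was 64.1% for *MSC1*, 64.6% for *RTC3*, 69.7% for *SPI1* and 75.7% for *DDR2*. The highest shares were those of *TMA10* (80.6%), *HSP12* (97.3%) and *MOH1* (138%). All 10 were over 50%, as were 127 (13.9%) of the 915 genes induced in wild type, whose median was 11.4%. In linear signal the shares were smaller for the other 9 genes and larger for *MOH1*, at 183%. Their median was 37.0%, beside 4.94% for all induced genes, and they ran from 14.3% for *RTN2* to 95.4% for *HSP12* below *MOH1*. Of the 10 genes, 2 were over 50% on this scale, against 7.32% of the 915. The wild type response and the untreated strain difference share the untreated wild type array, so an error on it would move both the same way.

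**Figure D2:**
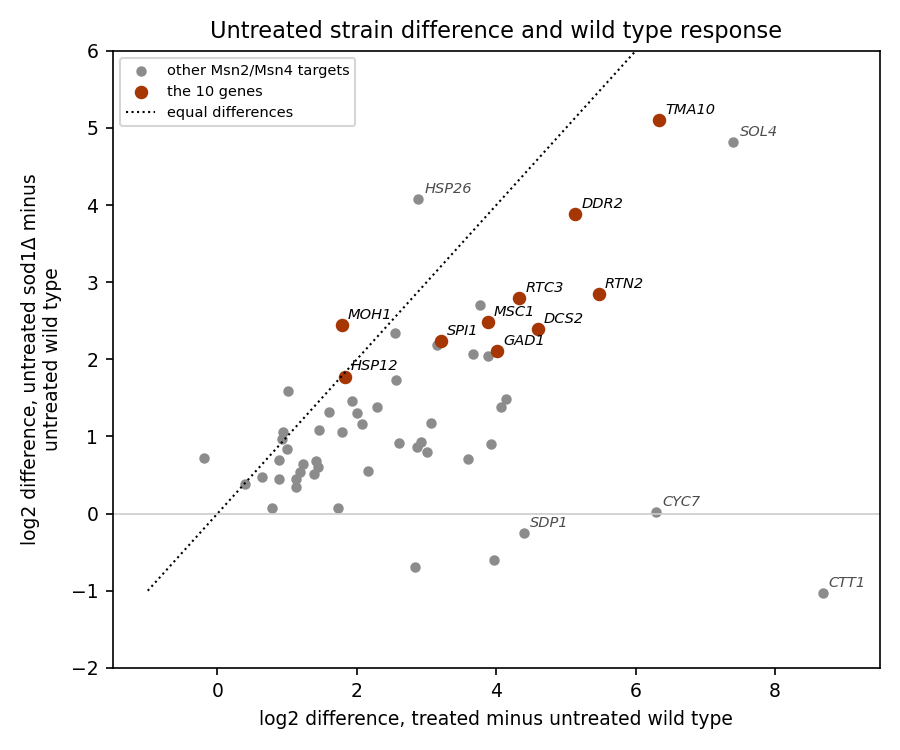
Log2 difference between the untreated strains (vertical axis) against the wild type response to H2O2 (horizontal axis), for the 10 genes (red) and 48 other Msn2/Msn4 targets (grey), 1 array per group and both axes sharing untreated wild type. The dotted line marks equal differences; *MOH1* lies above it and *HSP12* close to it, while *CTT1*, *CYC7* and *SDP1* lie near or below 0 on the vertical axis.

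The design text looks for H2O2-induced genes whose induction fell short by more than 50% without *SOD1*. By that measure 9 of the 10 genes were attenuated, against 100 (10.9%) of the 915 genes induced in wild type. On the log2 scale the measure equals the treated minus the untreated strain difference. It is therefore not separate from the untreated difference given above, and an error on the untreated wild type array would move both. The fold in sod1Δ was 10.0% of the wild type fold for *DDR2* and 12.7% for *TMA10*. It was between 23.7% and 32.8% for *GAD1*, *RTN2*, *RTC3*, *DCS2* and *MSC1*, 38.8% for *SPI1* and 40.3% for *HSP12*. *MOH1* was the exception at 113%. With 32 added to the linear signal 8 were attenuated, and *TMA10* was no longer among them.

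The same responses looked different as increases in linear signal. *DDR2* gained 7933 units of linear signal in wild type and 8664 in sod1Δ, although its fold was 35.1 in the former and 3.52 in the latter. *RTN2* gained 5327 and 8834, *RTC3* 5003 and 7723, and *MSC1* 3887 and 6074. *SPI1* gained 2406 and 3539, and *DCS2* 2971 and 3741. *TMA10* and *MOH1* gained 587 and 53.7 in wild type and 2335 and 346 in sod1Δ. The gain in sod1Δ was larger for 8 of the 10 genes, and so for 7 of the 9 attenuated ones. Among all 915 induced genes 39.8% had a larger gain in sod1Δ, and among the 100 attenuated genes 27%. The 2 genes with a smaller gain in sod1Δ were *HSP12*, at 7471 and 4285, and *GAD1*, at 3255 and 2609. Linear signals from arrays flatten at high levels, and *HSP12* was the brightest of the 10 genes. Whether this bears on its gains was not tested.

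**Figure D3:**
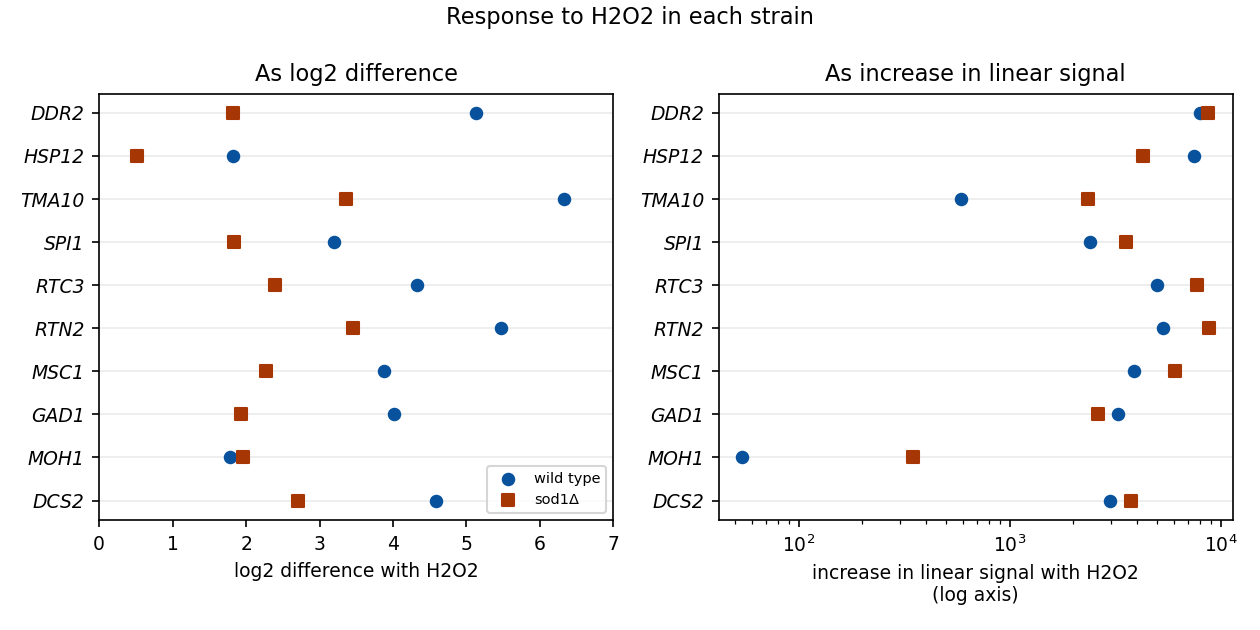
Response of the 10 genes to H2O2 in wild type (blue circles) and sod1Δ (red squares), as a log2 difference (left) and as the increase in linear signal on a log axis (right), 1 array per group. The log2 difference is smaller in sod1Δ for 9 genes, while the linear increase is larger in sod1Δ for 8.

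For 5 of the genes a paralogue from the whole-genome duplication of yeast was on the array: *HOR7* for *DDR2*, *STF2* for *TMA10*, *SED1* for *SPI1*, *RTN1* for *RTN2* and *DCS1* for *DCS2*. In each pair the listed gene had the larger wild type response, by at least 2-fold in all 5. The listed genes were picked with their values known and the paralogues were not, so this order is only described. *RTN1*, the other reticulon gene, went from 13.16 to 12.58 in wild type, a difference of -0.58 beside 5.47 for *RTN2*. *HOR7* read 12.62 and 13.31, which is 0.69 beside 5.13 for *DDR2*. *SED1*, encoding an abundant cell wall protein, read 13.17 and 13.16, beside 3.20 for *SPI1*.

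*STF2* and *DCS1* were the paralogues past 2-fold, higher by 2.49 and 1.45 in wild type beside 6.33 for *TMA10* and 4.59 for *DCS2*. Both were also higher in untreated sod1Δ, *STF2* by 1.45 and *DCS1* by 1.13. The other paralogues differed between the untreated strains by 0.18 (*HOR7*), 0.27 (*SED1*) and -0.10 (*RTN1*). In the untreated strains, too, the listed gene exceeded its paralogue by at least 2-fold in all 5 pairs, most in *DDR2* over *HOR7* (3.70) and least in *DCS2* over *DCS1* (1.26). Between the treated strains it did so by at least 2-fold in 1 of 5 pairs, *TMA10* over *STF2* (1.82). There *DCS2* minus *DCS1* was -0.16. *HOR7*, *SED1* and *RTN1* read 12.62, 13.17 and 13.16 in untreated wild type, where the highest gene read 14.76. Whether their brightness bears on their differences was not tested. Paralogues can share probe signal, and how far these probe sets do was not tested.

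**Figure D4:**
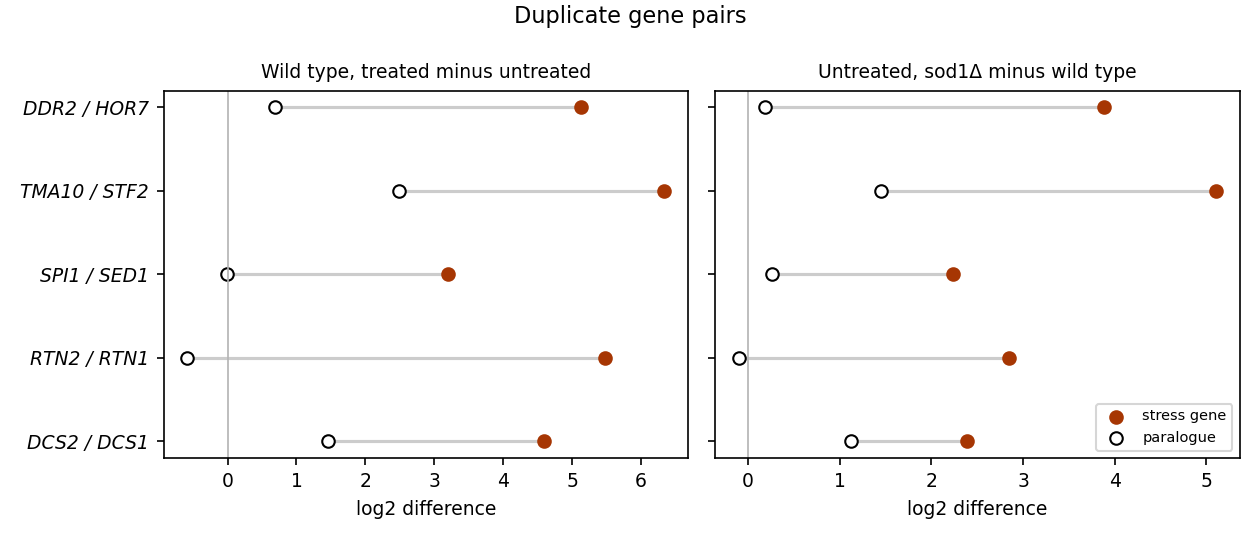
Log2 difference of 5 genes (red) and their duplicates (white), for the wild type response (left) and for untreated sod1Δ over untreated wild type (right), 1 array per group. The red point lies to the right in all 5 pairs in both panels.

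The other genes of the pathway were followed in a list of 48 commonly cited Msn2/Msn4 targets, all measured, which was also drawn up with earlier results of these data known. In wild type 40 of the 48 were at least 2-fold higher with H2O2 and none lower, with a median of 2.12. In sod1Δ 32 were higher, with a median of 1.71. Between the untreated strains 20 were higher in sod1Δ and 1 lower, with a median of 0.89, and between the treated strains 9 were higher and none lower, with a median of 0.41. The median share of the log2 induction that untreated sod1Δ already showed was 43.5% over the 40 induced targets, beside 67.2% for the 10 genes and 11.4% for all induced genes. Of the 40, 6 were attenuated: *ALD3*, *GDB1*, *HSP26*, *PGM2*, *SOL4* and *TPS2*. That is 15%, beside 10.9% of all induced genes, and with the limit at 67% it was 19 of the 40, beside 29.7%. A larger linear gain in sod1Δ was seen in 26 of the 40.

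The other targets did not all follow the 10 genes. Those with the largest untreated strain differences, given first, were higher in untreated sod1Δ, as the 10 genes were. *SOL4*, a pentose phosphate pathway gene, read 4.11 without and 11.50 with H2O2 in wild type, and 8.92 and 12.16 in sod1Δ. *HSP26*, encoding a small heat shock protein, read 7.90 and 10.78 in wild type and 11.98 and 12.70 in sod1Δ, so its untreated sod1Δ level was above treated wild type, as for *MOH1*. *NQM1*, encoding a transaldolase, and the glycogen debranching enzyme gene *GDB1* were 2.71 and 2.34 higher in untreated sod1Δ.

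*CTT1*, the gene of the cytosolic catalase and a standard reporter of Msn2/Msn4 activity, was lower in untreated sod1Δ at a difference of -1.03, with 3.78 in wild type and 2.74 in sod1Δ. Both signals were dim, and with 32 added to the linear signal the difference was -0.24 and no longer past 2-fold. Peroxide took it to 12.46 and 11.98. *CYC7*, encoding a cytochrome c isoform, read 3.83 and 3.84 untreated and 10.12 and 10.42 treated. The MAP kinase phosphatase gene *SDP1* read 3.78 and 3.53 untreated and 8.17 and 8.42 treated. These 3 were induced by 8.68, 6.29 and 4.39 in wild type, but none was at least 2-fold higher in untreated sod1Δ. All 3 were dim before treatment, and with 32 added their inductions were 6.95, 4.63 and 2.81, beside a median of 3.91 for the 10 genes. In all, 20 of the 40 induced targets were within 2-fold between the untreated strains, 19 were higher in sod1Δ and 1, *CTT1*, was lower. With 32 added none of the 48 was lower.

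Genes linked to other stress factors were set beside the Msn2/Msn4 targets. Of 22 genes linked to the peroxide sensor Yap1, 18 were at least 2-fold higher in treated wild type and 17 in treated sod1Δ, with medians of 3.26 and 3.10. Of all genes 17.1% and 14.6% were higher. Between the untreated strains 4 of the 22 were higher in sod1Δ, beside 3.71% of all genes, and the median of the 22 was 0.32. The 4 were *HBN1* (3.23), *FRM2*, *GRE2* and *OYE3*. The median share of induction present in untreated sod1Δ was 11.0% over the 18 induced genes. Of these 18, 3 were attenuated, beside 10.9% of all induced genes. A larger linear gain in sod1Δ was seen in 10 of the 18, beside 39.8% of all induced genes. The sulfiredoxin gene *SRX1* and *AAD6* started next to the floor, at 2.42 and 2.90 in untreated wild type and 2.66 and 2.40 in untreated sod1Δ, so the size of their induction is not given. With H2O2 they read 12.81 and 11.31 in wild type and 12.70 and 11.95 in sod1Δ. The glutathione transferase gene *GTT2* was induced by 8.29 in wild type and 7.68 in sod1Δ. It was dim before treatment, at 3.61 and 4.57, where the background correction stretches differences. Of 16 chaperone genes linked to the heat shock factor Hsf1, 2 were higher and 3 lower in treated wild type, with a median of -0.33, and 3 were higher in treated sod1Δ, with a median of 0.30. Between the untreated strains none was higher in sod1Δ and 1, *CUR1*, was lower at -1.84, and the median was -0.31. Of all genes 17.1% were higher and 16.1% lower in treated wild type, and 14.6% were higher in treated sod1Δ. Between the untreated strains the shares were 3.71% higher and 3.18% lower. These counts of the 16 chaperone genes are close to the shares of all genes. *CUR1*, which sorts misfolded proteins, and its relative *BTN2* were the 2 induced by H2O2 in wild type, by 1.14 and 1.71, and *YDJ1* and *SSA2*, which encode an Hsp40 and an Hsp70 chaperone, differed by -1.19 and -1.09.

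The transcripts of the factors themselves differed less than those of the 10 genes with H2O2 in each strain and between the untreated strains. *MSN2* read 8.05 without and 8.99 with H2O2 in wild type, and 8.39 and 8.53 in sod1Δ, all within 2-fold. *MSN4* read 8.86 and 9.74 in wild type and 9.77 and 10.19 in sod1Δ, with an untreated strain difference of 0.91. Among 15 measured regulators of the pathway, none differed at least 2-fold between the untreated strains or between the treated ones. Of all genes 3.71% were higher and 3.18% lower in untreated sod1Δ, and 3.07% and 6.33% in treated sod1Δ. A count of none among 15 is close to these shares. With H2O2 4 of the 15 were higher and 1 lower in wild type. These were *GIS1* (2.70), the kinase genes *TPK2* (2.42) and *YAK1* (2.40), *WHI2* (1.16) and *TPK3* (-3.08). In sod1Δ 3 were higher and 1 lower. Of all genes 17.1% were higher and 16.1% lower with H2O2 in wild type, and 14.6% and 15.8% in sod1Δ.

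The genes whose pattern was most like the 10 were found by distance. Each gene's 4 log2 values were centred on their mean, and the Euclidean distance to the median pattern of the 10 genes was taken over the 4 arrays for 5365 genes. The nearest outside the 10 was *YPS6*, encoding a presumed cell surface protease, at a distance of 0.36, with 4.35 and 8.94 in wild type and 7.02 and 9.53 in sod1Δ. It was followed by the aldehyde dehydrogenase gene *ALD3* (0.50), *YMR090W* (0.63), the glutathione transferase gene *GTO3* (0.66), the aminotransferase gene *AGX1* (0.72), *GND2* of the pentose phosphate pathway (0.84), the heme oxygenase gene *HMX1* (0.87) and the hexose transporter gene *HXT5* (0.89). Of these 8, *ALD3* and *GND2* are on the list of other targets. Within the 10 genes, *RTC3* (0.21) and *MSC1* (0.26) lay closest to the median pattern, and *MOH1* (1.92), *HSP12* (2.18) and *TMA10* (2.54) farthest. Of the 5365 genes, 432 lay no farther than *TMA10*, the 10 genes included. The wild type response of *HSP12* and *MOH1* was smaller than that of the median pattern and the response of *TMA10* larger.

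*GTO3* is also the chromosomal neighbour of *GAD1*, on its downstream side and the same strand in the RefSeq gene table. It read 7.53 and 11.54 in wild type and 9.35 and 12.05 in sod1Δ, beside 7.75 and 11.76 and 9.85 and 11.79 for *GAD1*. Of the 17 measured genes next to one of the 10, 16 were above the floor. Of these, 2 were at least 2-fold higher in treated wild type, *GTO3* and *AIM39* beside *DDR2* (2.16), and 1, *GTO3*, was higher in untreated sod1Δ. Among all genes the shares were 17.1% and 3.71%. Of the 16, 3 were at least 2-fold lower in treated wild type and 1 in untreated sod1Δ, beside 16.1% and 3.18% of all genes. The median of the 16 was 0.04 for the wild type response and -0.16 between the untreated strains. *PEA2*, transcribed away from *SPI1* across the shared upstream region, differed by -1.64 in wild type and -1.23 between the untreated strains, opposite to *SPI1*. These neighbours were looked up after the values of the 10 genes had been seen.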

How the data were processed

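Per the labels' protocols, 50 ng of total RNA was amplified over the whole transcriptome, and the cDNA was biotin-labelled. The deposited log2 signals per probe set came from GCRMA, per the submitters' processing notes, which subtracts a sequence-based background and brings arrays to a common distribution. Its version is not given in the sources used here. Of 10928 probe sets, 5498 named 1 *S. cerevisiae* gene through the platform annotation and 12 symbols were updated by gene identifier. Probe sets of a gene were averaged, which gave 5449 genes. The floor was the 95th percentile of 1746 *Schizosaccharomyces pombe* probe sets, and comparisons took the genes above it on the brighter of their arrays. Groups came from the labels. With 1 array per group there was no test, and calls are differences of at least 2-fold. Linear signal is 2 raised to the deposited log2 value. Attenuated means a fold in sod1Δ under 50% of the wild type fold. Arrays give no counting depth, and their number limits the precision. The members and lists were chosen with earlier results of these data known. Outside them, the named genes are the up to 4 per list with the largest untreated and the largest wild type differences past 2-fold, the paralogues, *MSN2*, *MSN4*, *SOD1* and the 8 nearest patterns. Members of counts of 6 or fewer and chromosomal neighbours were named after their values were seen. Alternatives were the brightest probe set, quantile normalization, median centring, 32 added to the linear signal, a floor at the 99th percentile, no floor and an attenuation limit of 67%. Promoter motifs were not analysed here. The steps were tested on simulated data and run in Python 3.11.15 with pandas 2.3.3.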

Additional observations from a re-analysis of the deposited data

Results flagged for a closer look

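*SED1*, the paralogue of *SPI1*, differed with H2O2 by -0.0084 in wild type and by 0.18 in sod1Δ, and is listed because the strains went opposite ways. Both values are within the spread between probe sets, and the difference between the strains was not tested.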

How the results depend on the processing

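The counts and medians over the 10 genes kept their direction under quantile normalization, median centring and 32 added to the linear signal. The brightest probe set, the higher floor and no floor could not change a value of these genes, which have 1 probe set each and lie above both floors. The wild type count ranged from 9 to 10, the attenuated count from 8 to 9, the larger linear gains from 7 to 8 and the genes at least 2-fold below treated wild type in untreated sod1Δ from 7 to 8. The median untreated strain difference ranged from 2.25 to 2.57 and the median wild type response from 3.91 to 4.28. The comparison of linear gains, and the added signal for *CTT1*, *CYC7* and *SDP1*, were chosen after the data had been seen. With 32 added, *MOH1* fell just under 2-fold in wild type, which took it out of the counts of induced genes. In that setting the untreated strain difference of *MOH1* was 1.49 and 60 genes in all were attenuated rather than 100. With the attenuation limit at 67%, 19 rather than 6 of the other Msn2/Msn4 targets were attenuated, and 9 of the 10 genes as before. The search for promoter motifs and its alternative window were not run. No paired analysis was possible because each group had 1 array. A limit is that single arrays cannot separate strain or treatment from culture, amplification or hybridization.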
